A study of Macaca fascicularis with 4 samples.

Results

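TBX5 and PRRX1 double-positive cells of the embryonic day 24 (E24) cynomolgus monkey embryo were chosen by 1 or more unique molecular identifiers (UMIs, counts of single captured transcripts) of each gene in the same cell. They numbered 315 of the 10639 E24 cells and of 27626 cells in the whole series. The proposed name for them was forelimb and body-wall mesenchyme. Their limb-field genes were in part higher than in the other E24 cells. Of these genes, MSX1 and HAND2 were not higher than in cells with PRRX1 but without TBX5. In share of cells, TBX3, TWIST1 and IRX3 differed less from those cells than from the other E24 cells. In a list of body-wall and somatic mesoderm genes more were lower than higher. They are called here by the 2 genes that chose them.

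TBX5 is a T-box transcription factor that starts forelimb outgrowth from the lateral plate mesoderm and also acts in the heart, and FGF10 is a signal downstream of it in the limb field. PRRX1 is a homeobox factor of limb and lateral plate mesenchyme. The HOX genes are ordered along their clusters as they are along the body axis, with high-numbered paralogue groups expressed farther back, and the forelimb forms in front of the hindlimb field, which PITX1 and ISL1 mark.

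The study asked where the somatic cells of the gonad come from, and profiled Macaca fascicularis embryo fragments by droplet sequencing of transcript 3′ ends. The E24 library came from Carnegie stage 11. Single libraries from E28, E31 and E37 covered Carnegie stages 13, 14 and 18, and the labels give no treatment. At E24 the yolk sac, amnion, heart and tissues in front of it, and the posterior growth zone had been cut away, while the later libraries held tissue around the urogenital ridge. The E24 title lists 2 identifiers, but all its barcodes carry 1 suffix and no file assigns cells to embryos, so the E24 library was 1 sample. Without a second library no test was possible, and every 95% interval below covers counting error only.

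The 4 libraries held 5028 to 10639 cells with medians of 6672.5 to 11391 UMIs. E24 shared 71 to 111 barcodes with each later library, and 3 to 5 of these were double-positive cells. Double-positive cells had a median of 11761 UMIs against 9929.5 in the other 10324 E24 cells. They were 2.96% of E24 cells (exact binomial interval 2.65 to 3.30) and held 3.53% of its UMIs.

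The rule genes are described first, with nothing read from them. TBX5 was found in 476 E24 cells and PRRX1 in 1736, so that 66.2% of cells with TBX5 also had PRRX1, and 18.1% of cells with PRRX1 had TBX5. The double-positive cells held 68.1% of all TBX5 UMIs of the library but 19.8% of its PRRX1 UMIs. Just inside the rule were 86 cells with 1 UMI of each gene (median 11437.5 UMIs), and just outside it were 161 cells with TBX5 but 0 PRRX1 UMIs and 1421 with PRRX1 but 0 TBX5 UMIs. Only 77 cells had 2 or more UMIs of both (median 13979), and the highest cells had 5 UMIs of TBX5 and 7 of PRRX1. In cluster 19, a neural-tube-like cluster of 725 cells (median 8536 UMIs) used as background, TBX5 was found in 0 cells, which allows a share of up to 0.414% by the limit of 3 cells (exact binomial upper limit 0.508%), and PRRX1 in 1.10%. A cell outside the rule with 0 UMIs of a gene may still have expressed it, so the cells with only 1 of the genes may include some that expressed both.

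**Figure D1:**
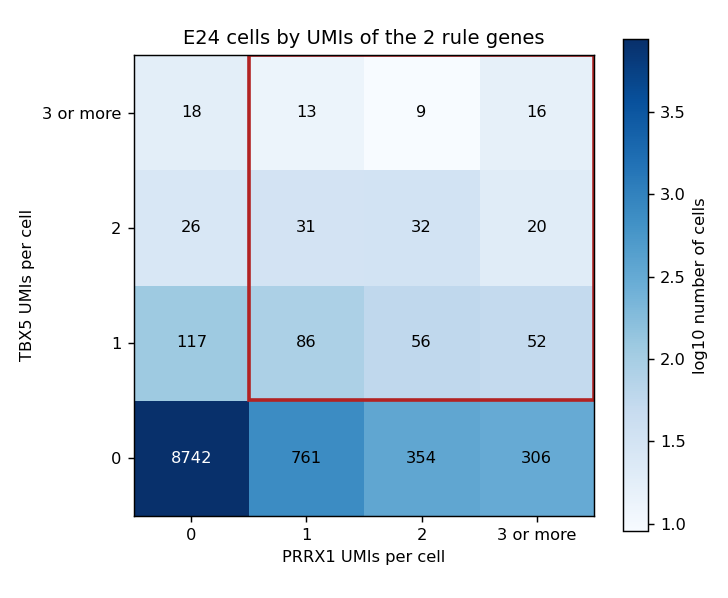
Number of E24 cells by UMIs of PRRX1 (horizontal) and of TBX5 (vertical) per cell, with colour for the log10 number of cells and the double-positive cells inside the red frame. The 86 cells with 1 UMI of each gene form the largest box inside the frame, and 8742 cells lie at 0 for both.

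The later libraries held almost none of these cells. There were 3 among 5028 cells at E28, 2 among 6661 at E31, and 0 among 5298 at E37, which allows up to 0.0566% by the same limit of 3 cells (exact upper limit 0.0696%). The TBX5 level over the whole library was 6.20 CPM (counts of a gene scaled to the total UMIs) at E24, and 0.0800, 0.0415 and 0.497 CPM at E28, E31 and E37. PRRX1 differed less, at 28.2, 16.4, 15.8 and 11.9 CPM. The tissue taken differed between the stages, so stage and dissection cannot be told apart, and 5 later cells were too few for levels of other genes.

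Levels below are summed UMIs of a group scaled to CPM, and a gene is counted as higher or lower at a ratio of 2 or more, or of 0.5 or less, among 11267 named genes with at least 200 UMIs over E24. Against the other E24 cells, 190 genes (1.69%) were higher and 899 (7.98%) were lower in the double-positive cells. The interval lay apart from a ratio of 1 for 190 and 829 of them. The shares of genes counted serve as background for the lists, whose members were read with these percentages beside them. The median log2 ratio over all genes was -0.00.

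Of 27 transcription factors of the limb field, 9 were higher and 5 lower, with a median log2 ratio of 0.50. TBX3, a T-box repressor of limb and heart, was at 137 CPM against 36.4 in the other cells, a ratio of 3.75 (3.43 to 4.10). Its relative TBX2 was at 18.9 against 3.51 CPM, a ratio of 5.38 (4.16 to 6.89). ALX1, a homeobox factor of mesenchyme, was at 39.1 against 6.43 CPM. These genes were found in many cells: TBX3 in 70.2% of double-positive and 21.0% of other cells, against 1.24% in the neural-tube-like cluster, and after thinning to 3500 UMIs per cell in 32.4%, 9.42% and 0.414%. The homeobox, twist-box and hand factors PRRX2, TWIST1, MSX1, MSX2 and HAND2 were also higher, with ratios of 2.28 to 3.09, as was IRX3 at 2.73. Without the 70 cells of cluster 12, described below, MSX1 was 1.71 times higher, under 2-fold, and the other 8 stayed past it. The 5 lower members were SALL1, EMX2, SP8, DLX5 and DLX6. SP8, DLX5 and DLX6 belong to the limb ectoderm rather than its mesenchyme, and DLX6 had 0 UMIs here. LHX9 and ALX4 also had 0 UMIs, and TBX4, the hindlimb relative of TBX5, had 1. In the other cells LHX9 stood at 0.153, ALX4 at 0 and TBX4 at 0.629 CPM, so these low counts do not set the double-positive cells apart.

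Among signals of limb outgrowth FGF10 alone was higher, 1 of 19 measured genes, while 8 were lower and the median was -0.96. FGF10 was at 22.6 CPM (18.2 to 27.7) against 6.35 in the other cells, a ratio of 3.56 (2.83 to 4.43). A UMI of it was seen in 24.8% of double-positive cells, 6.02% of other cells and 1.79% of the neural-tube-like cluster, and after thinning in 6.98%, 2.29% and 0.828%. In the 80 cells that met the rule after thinning, its log2 ratio was 1.12 in place of 1.84. FGF8 (1.23 against 4.95 CPM), an ectodermal ridge signal, and the BMP antagonist GREM1 (6.42-fold) were lower. SHH, the signal of the polarizing region, had 2 UMIs in all 315 cells. The hedgehog targets PTCH1, GLI1 and HHIP were lower too, PTCH1 at 22.6 against 61.9 CPM, and 0 of 11 hedgehog genes were higher.

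Over the WNT list 4 of 19 genes were higher (WNT2, RSPO2, SFRP1 and NKD1) and 8 lower (WNT3A, WNT5B, WNT6, RSPO1, RSPO3, FRZB, SP5 and LGR5). The secreted WNT antagonist SFRP1 was at 975 CPM against 158, a ratio of 6.16 (5.95 to 6.37). It was seen in 310 of the 315 cells. SFRP5, of the same family but outside the list, was at 36.9 against 3.45 CPM, a ratio of 10.7 (8.78 to 12.9), and the WNT agonist RSPO2 at 17.9 against 4.90. WNT2 was 3.42 times higher, at 43.7 against 12.8 CPM, but 1.58 times without the cluster 12 cells. In the BMP and TGFB list 2 of 21 genes were higher, the ligand BMP5 (51.6 against 12.2 CPM) and the membrane protein BAMBI (250 against 104, and 179 without the cluster 12 cells). The 6 lower genes were BMP2, BMPR1B and the antagonists GREM1, CHRD, CHRDL1 and FST.

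In the list of the splanchnic and cardiac lateral plate 6 of 13 genes were higher and 4 lower. Cluster 12 held 70 of the double-positive cells when the E24 cells were clustered, and without these 5 of the 6 fell under 2-fold. HAND1, WNT2, MAB21L2 and GATA6 were still 1.52 to 1.97 times higher, and only GATA4 was not higher. GATA5, a zinc finger factor of heart and gut mesoderm, was at 34.1 against 6.39 CPM, and at 31.9 without those 70 cells. It alone of the 6 stayed past 2-fold in the remaining 245 cells. Its relative GATA6 was at 63.1 against 22.0 CPM, and at 43.4 without them, and GATA4 was at 8.60 against 3.28 and then at 3.01, below the other cells. HAND1 was at 324 against 137 CPM and then at 207, and MAB21L2 at 44.0 against 10.9 and then at 19.6. FOXF1, a splanchnic factor, was lower, at 4.42 against 13.5 CPM.

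Of 5 cardiac muscle markers measured, 3 were higher (TNNT2, MYL7 and TNNI1) and 2 lower (MYL4 and NPPA), and the summed level of the 8 markers was 320 against 135 CPM. The sarcomere gene TNNT2 was at 163 against 64.1 CPM, and at 101 without the cluster 12 cells. MYL7 was at 52.3 against 16.2 CPM, but 188 of its 213 UMIs lay in cluster 12, and without it the level was 7.53 CPM, below the other cells. TBX5 itself is expressed in the heart, whose removal the labels state, and the part of cardiac cells in these levels was not tested.

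The lists that bear on the proposed name went different ways. Of 8 measured markers of limb and body-wall mesenchyme other than TBX5 and PRRX1, 5 were higher (PRRX2, FGF10, HAND2, TWIST1 and MSX1) and 0 lower, with a median log2 ratio of 1.22. The list of body-wall and somatic mesoderm genes had 3 higher (IRX3, GATA5 and GATA6), 9 lower of 18, and a median of -1.15. Its lower genes include PAX9, FOXC1, FOXC2, TFAP2A and TFAP2B, which are also genes of somites or ectoderm. FOXC2 was at 8.35 against 48.6 CPM and OSR1 at 4.67 against 15.7. Among matrix genes, 3 of 33 were higher. The small proteoglycan DCN was at 503 against 85.8 CPM, a ratio of 5.86 (5.58 to 6.15), and was seen in 84.4% of double-positive cells, 15.1% of other cells and 1.52% of the neural-tube-like cluster (64.1%, 9.96% and 0.690% thinned). COL6A3 was at 178 against 60.6 CPM. LUM was at 873 against 434 CPM, and at 609 without the cluster 12 cells. The retinoic acid enzyme ALDH1A2 was the only higher gene of 13 in its list, at 54.8 against 18.8 CPM. Genes of cell division did not pass the ratio in the higher direction: 0 of 23 S phase and 0 of 23 G2 and M genes.

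Other genes with high ratios were FITM1, a lipid droplet protein of muscle (37.6 against 3.28 CPM, ratio 11.5), the pentraxin PTX3 (52.6 against 10.6), the protease ADAMTS1 (77.9 against 17.5) and the microtubule protein DCX (30.2 against 6.15). FITM1 was seen in 106 double-positive cells, with at most 4 UMIs in a cell. PNOC, which encodes the nociceptin precursor, had a ratio of 9.54 (40.5 against 4.25 CPM), but it was seen in 26 of the 315 cells, and 1 cell held 18.2% of its UMIs. Without the cluster 12 cells its direction turned, with a log2 ratio of -2.01.

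**Figure D2:**
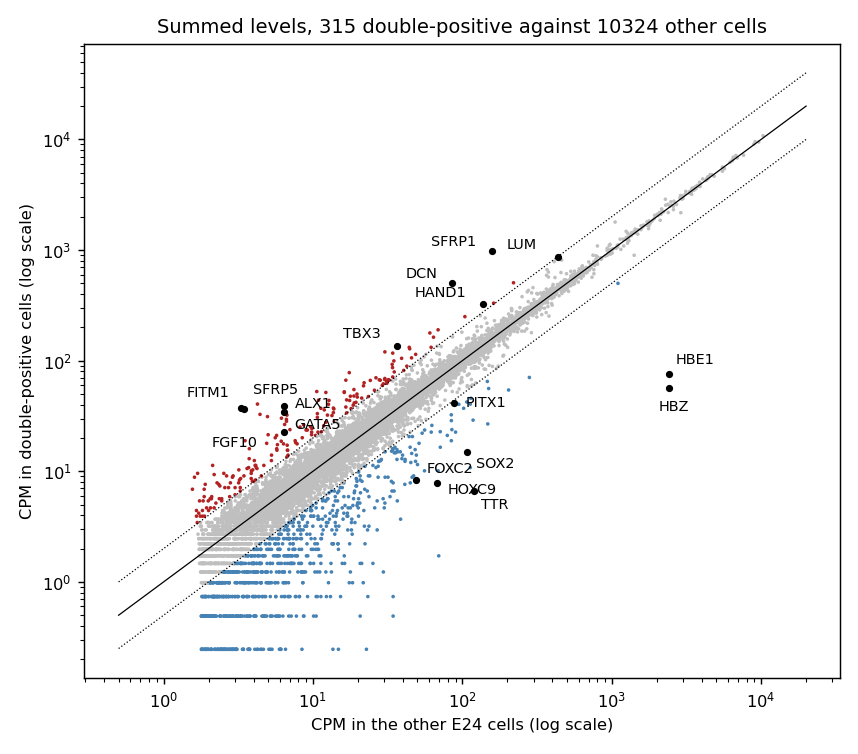
Summed level of each gene in the other E24 cells (horizontal) and in the double-positive cells (vertical), in CPM on log axes, with red for a ratio of 2 or more and blue for 0.5 or less. SFRP1 (975 against 158 CPM) and DCN (503 against 85.8) stand above the diagonal, and HBZ (57.0 against 2423) far below it.

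Markers of several other cell types were lower. All 6 sclerotome, 5 notochord and 6 macrophage markers measured were lower, and all 7 erythroid ones. The median cell of both groups had 0 CPM of the sclerotome, notochord and macrophage markers. The embryonic globin HBZ was at 57.0 against 2423 CPM, but 0.04 was its log2 ratio once the 110 cells of erythroid-like cluster 28 were left out of the comparison group. HBE1 UMIs were seen in 58.4% of double-positive cells, 54.5% of other cells and 53.7% of the neural-tube-like cluster, a like share in unlike cells. Liver and yolk sac transcripts were also lower in sum: TTR was at 6.63 against 120 CPM, and AHSG had 2 UMIs. Both were among the leading genes of cluster 25, which had 41 cells. Gut endoderm markers, TTR among them, were at 58.6 CPM in the median double-positive cell and 63.0 in the median other cell. The highest other cell had 84491 CPM of them. The epithelial gene EPCAM was at 64.9 against 147 CPM. Smooth muscle markers went the other way, with 3 of 6 higher (CNN1, RGS5 and DES), 0 lower and a summed level of 400 against 223 CPM. Without the cluster 12 cells RGS5 was still 2.64 times higher, DES was 1.20 times higher, and CNN1 stood at 1.51 against 1.68 CPM.

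The PRRX1-only cells, which share 1 rule gene, were nearer to the double-positive cells. Here 81 genes (0.719%) were higher and 608 (5.40%) lower, with the interval apart from a ratio of 1 for 74 and 417. SFRP5 (36.9 against 6.40 CPM), SFRP1 (975 against 274), EPB41L4A (21.4 against 4.89), ALX1 (39.1 against 14.1) and DCN (503 against 212) were again higher, as was TBX2 (18.9 against 6.94). FGF10 was at 22.6 against 9.48 CPM, a ratio of 2.38 (1.82 to 3.10), and FGF9 at 26.8 against 12.8, the 2 higher genes of 19 outgrowth signals, with 5 lower. ALDH1A2 (54.8 against 23.0) and CYP26A1 (30.5 against 11.7), which make and remove retinoic acid, were both higher. MSX1 was at 66.6 against 67.6 CPM, HAND1 at 324 against 331 and GATA6 at 63.1 against 70.7, so these lateral plate factors were at like levels in both groups. RSPO2 was seen in 17.1% of double-positive and 14.1% of PRRX1-only cells, WNT2 in 27.3% and 24.4%, and MYL7 in 20.3% and 17.7%. Thinned, the shares were 6.35% and 7.11% for RSPO2, 12.1% and 13.9% for WNT2, and 12.4% and 9.29% for MYL7. HAND2, at 47.9 against 67.7 CPM, did not reach the 2-fold mark. By share of cells TBX3 was seen in 70.2% against 46.7%, TWIST1 in 61.6% against 46.4% and IRX3 in 62.5% against 49.2%. Thinned, the shares were 32.4% and 21.3% for TBX3, 27.0% and 22.7% for TWIST1, and 27.3% and 22.6% for IRX3.

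Genes of the hindlimb and posterior body separated the groups. PITX1 was at 41.3 CPM in double-positive and 347 CPM in PRRX1-only cells, 8.41-fold lower. It was seen in 18.7% and 62.5% of the cells, and in 1.52% of the neural-tube-like cluster (9.21%, 49.6% and 0.552% thinned). ISL1 was at 8.35 against 53.7 CPM, 6.43-fold lower. The peptide gene PENK (3.93 against 31.8) and KYNU, an enzyme of tryptophan breakdown (5.16 against 43.2), were lower as well.

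Of 32 HOX genes measured, 0 were higher and 9 lower than in PRRX1-only cells, and all 9 belonged to paralogue groups 8 to 11. Summed by group, the ratios were 0.973, 1.19, 1.08 and 1.07 for groups 1 to 4, and 1.38 (1.23 to 1.54) for group 5. From there they were lower: 0.751 for group 6, 0.805 for group 7, 0.580 for group 8 and 0.380 (0.344 to 0.419) for group 9. Group 10 was 6.40-fold lower (4.96 to 8.39), at 15.2 against 97.5 CPM, and group 11 was 10.6-fold lower on 7 UMIs. With 2 or more UMIs of each rule gene group 10 was 3.61-fold lower, and without the highest doublet scores 15.1-fold lower. HOXC9 was at 7.86 against 61.8 CPM and HOXC5 at 20.4 against 10.4. Groups 1 to 5 were thus near or above their level in PRRX1-only cells, and groups 8 to 11 below it.

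**Figure D3:**
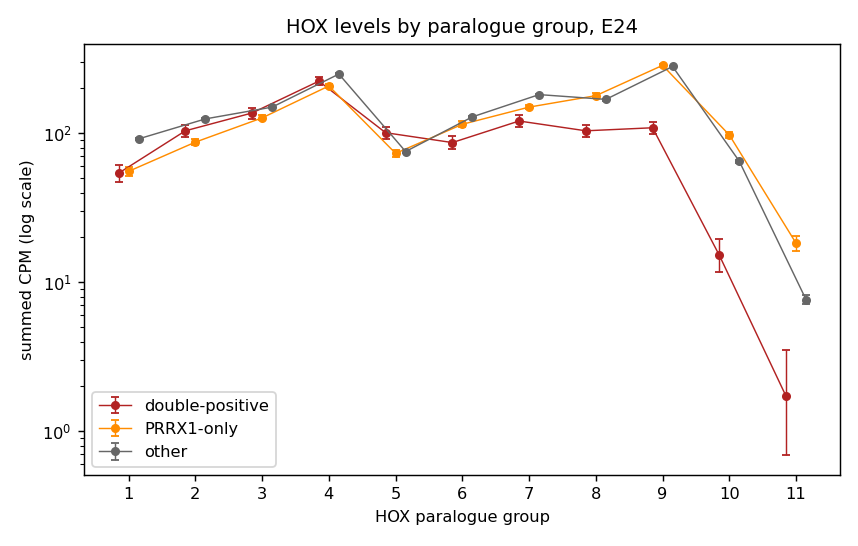
Summed CPM (log scale) of the HOX genes in each paralogue group, for double-positive, PRRX1-only and other E24 cells, with exact 95% Poisson intervals. Double-positive and PRRX1-only cells lie close together at groups 1 to 4 and apart at groups 9 to 11, where double-positive cells stand at 109, 15.2 and 1.72 CPM.

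Part of this difference moved with the cluster a cell fell in. In comparisons added after the data were seen, double-positive and PRRX1-only cells were set against each other within cluster 5 (206 and 297 cells) and within cluster 12 (70 and 202 cells), the 2 clusters with most double-positive cells. PITX1 was still 6.61-fold lower in cluster 5 and 2.73-fold lower in cluster 12. Group 9 HOX genes were 2.56-fold and 1.54-fold lower. For group 10 the ratio was 0.825 (0.481 to 1.39) in cluster 5 and 0.879 (0.402 to 1.78) in cluster 12. The double-positive cells there held 26 and 11 UMIs of group 10. In each cluster 1 cell held most of their HOXA10 UMIs (61.1% and 60.0%). For ISL1 the ratio was 0.632 (0.275 to 1.37) and 1.44 (0.565 to 3.41). The intervals of group 10 and ISL1 include 1. FGF10 was 1.93 (1.31 to 2.87) and 2.72 (1.01 to 7.27) times higher, and SFRP1 1.77 and 2.20 times. DCN was 1.92 times higher in cluster 5 but at a ratio of 0.885 in cluster 12. Clusters 4 and 13, which held 273 and 346 PRRX1-only cells, held 3 and 21 double-positive ones.

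The 161 TBX5-only cells, which share the other rule gene, had many of the same levels. There 383 genes (3.40%) were higher and 514 (4.56%) lower, but for 75 and 204 of these the interval lay apart from a ratio of 1, since the TBX5-only cells held few UMIs. FGF10 was at 22.6 against 20.8 CPM, TBX2 at 18.9 against 20.8, ALX1 at 39.1 against 38.8 and GATA5 at 34.1 against 34.9. PITX1 was at 41.3 against 19.7 CPM, a ratio of 2.09 (1.45 to 3.11). The ratio of 8.58 for the fibrinogen gene FGB rested on 1 double-positive cell with 55.1% of its UMIs. Likewise 1 TBX5-only cell held 59.0% of the HBZ UMIs of that group, which stood at 2051 CPM against 57.0.

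The double-positive cells were also set beside 2 groups chosen by other gene pairs, where the choosing genes are no result. In 271 cells with FOXF1 and GATA6, a pair of the splanchnic mesoderm, 9 further cells were double-positive and left out. Against them 350 genes (3.11%) were higher and 828 (7.35%) lower, with the interval apart from a ratio of 1 for 206 and 629. SFRP5 (36.9 against 1.61 CPM), FITM1 (37.6 against 3.77), ALX1 (39.1 against 4.31) and PTX3 (52.6 against 5.92) were higher, and of the limb-field list 7 of 27 were higher and 3 lower. FGF10 was at 22.6 against 5.65 CPM. The angiotensin receptor gene AGTR1 (1.23 against 56.5), the liver gene AFP (10.8 against 274) and PITX1 (41.3 against 275) were lower. AFP was among the leading genes of cluster 25 (41 cells) and AGTR1 of cluster 11 (164 cells). The share of FOXF1 and GATA6 cells with each gene was not taken, so a few cells may carry these levels. In 350 cells with PAX1 and FOXC2, a pair of the sclerotome, 0 were double-positive. Against them 900 genes (7.99%) were higher and 555 (4.93%) lower, with the interval apart from a ratio of 1 for 672 and 367. HAND1 (324 against 20.9 CPM), MSX1 (66.6 against 3.86) and HAND2 (47.9 against 2.50) were higher, and 12 of 27 limb-field genes were. RSPO2 had 0 UMIs in the PAX1 and FOXC2 cells and was at least 26.3-fold higher by the limit of 3 counts per group (exact lower limit 20.9). MEOX2, a somite factor, was at 1.72 against 89.2 CPM.

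**Figure D4:**
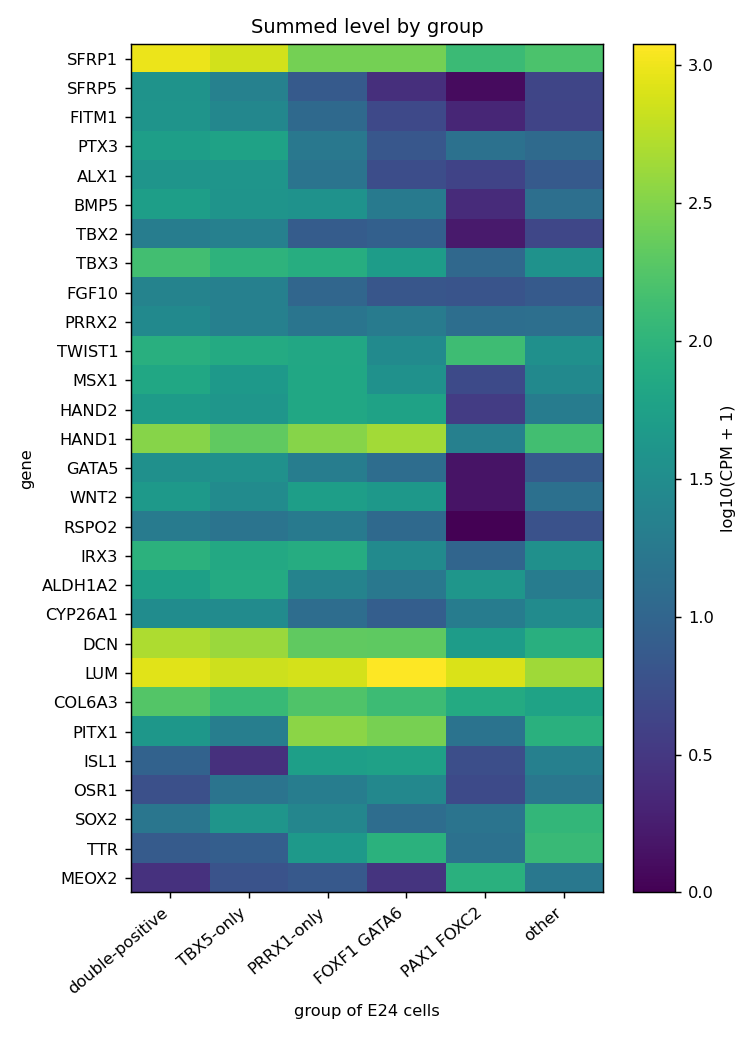
Summed level of 29 genes, as log10(CPM + 1), in double-positive cells and 5 comparison groups of E24 cells. SFRP1 stands at 975 CPM in double-positive and 735 CPM in TBX5-only cells, and PITX1 and ISL1 are brightest in the PRRX1-only and the FOXF1 and GATA6 columns.

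When all E24 cells were clustered with TBX5 and PRRX1 left out, 11 of 29 clusters held double-positive cells. Cluster 5 held 206 of them (65.4%, 59.9 to 70.6), cluster 12 held 70 (22.2%) and cluster 13 held 21 (6.67%). The 18 in other clusters had a median of 20646.5 UMIs and a median Scrublet doublet score of 0.156, against 0.0250 for all double-positive cells. A marker was called high in a cluster at 2 or more times its median level over the 29 clusters, if enough cells held it. This mark differs from the ratio to the other E24 cells used above. In cluster 5, 7 of 12 limb and body-wall markers were high, or 5 of 10 without TBX5 and PRRX1, which were the 2 among its leading genes. Those 5, PRRX2, FGF10, HAND2, TWIST1 and MSX1, were also high in clusters 4 and 13, which held 3 and 21 double-positive cells. Cluster 5 also had high markers of splanchnic mesoderm (4 of 8), cardiac muscle (3 of 8) and smooth muscle (3 of 7). MYL7, among these cardiac markers, was at 4.45 CPM in the double-positive cells of cluster 5, below the 16.2 CPM of the other E24 cells. TNNT2, also among them, was seen in 59.2% of those double-positive cells and in 23.7% of the other E24 cells. In cluster 12, led by MYL7, PNOC and DCN, markers of limb (6 of 12, or 4 of 10 without TBX5 and PRRX1), splanchnic mesoderm (5 of 8), cardiac muscle (4 of 8) and smooth muscle (6 of 7) were high together. Neither cluster was named.

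The double-positive cells of the 2 clusters had unlike transcripts, described here with no test since the clusters were made from these genes. Of 8001 genes with at least 1000 UMIs over E24, 375 (4.69%) were higher in the cluster 5 cells and 586 (7.32%) lower, and the interval lay apart from a ratio of 1 for 190 and 515 of them. The cluster 5 cells had more of CRABP2, which carries retinoic acid (914 against 129 CPM), ALDH1A2 (69.3 against 21.3), CYP26A1 (37.1 against 7.98), FGF9 (31.5 against 5.32) and the nuclear receptor NR0B1 (3.92 times higher). TBX3 was at 152 against 77.2 CPM and FGF10 at 26.7 against 13.3. The cluster 12 cells had more of HAND1 (838 against 186), GATA6 (150 against 43.4), WNT2 (148 against 16.3), the keratin KRT8 (1662 against 383), the contractile genes TAGLN (310 against 5.56) and MYL7 (250 against 4.45), and the collagens COL1A1 (886 against 94.1) and COL3A1 (2199 against 420). Of 32 matrix genes, 16 were lower in cluster 5 cells and 2 higher. PNOC was seen in 23 of 70 cluster 12 cells and 3 of 206 cluster 5 cells, and 162 of the 165 PNOC UMIs in double-positive cells lay in cluster 12. Genes that rise with dissociation stress moved with the same split, 10 of 14 lower in cluster 5 (median log2 ratio -1.66), FOS at 43.0 against 503 CPM and JUN at 22.2 against 295; their part in the difference was not tested.

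Some genes were shared by both. SFRP1 was at 956 and 1241 CPM, ALX1 at 42.3 and 47.9, GATA5 at 34.1 and 43.9, TWIST1 at 91.2 and 83.8, and TBX2 at 19.3 and 25.3 CPM in the cells of cluster 5 and cluster 12. TBX5 itself, used by the rule, was at 124 and 141 CPM.

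**Figure D5:**
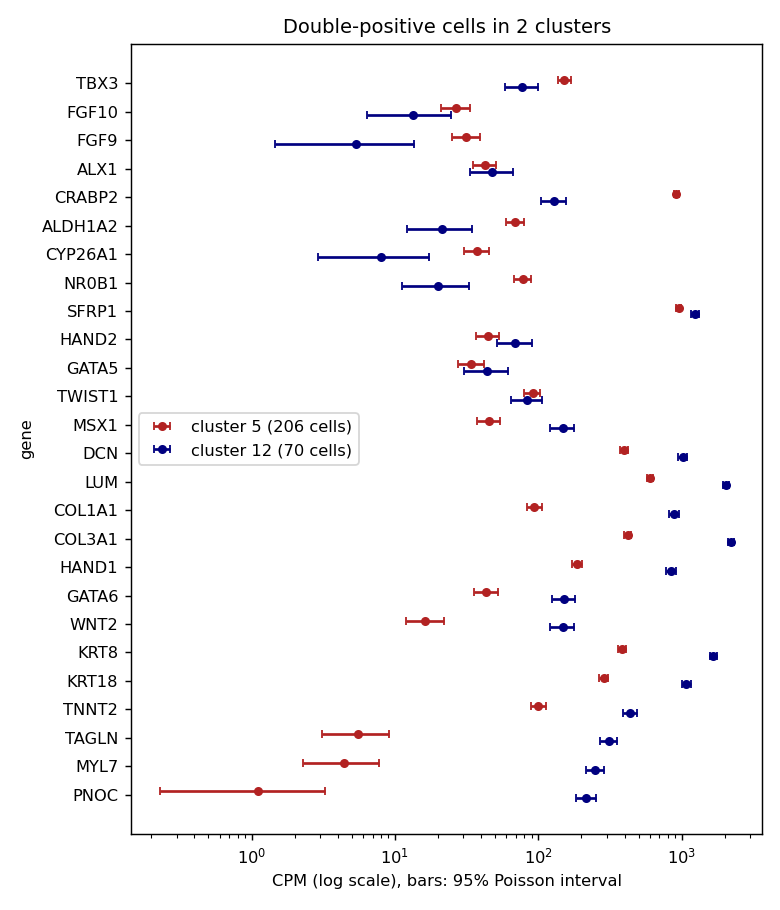
Level of 26 genes in the double-positive cells of cluster 5 (206 cells) and cluster 12 (70 cells), in CPM on a log axis with exact 95% Poisson intervals. CRABP2, ALDH1A2 and FGF9 lie higher in cluster 5 cells, ALX1, GATA5 and TWIST1 at like levels, and MYL7, TAGLN and PNOC far higher in cluster 12 cells.

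Within cluster 5, the 206 double-positive cells were close to the 534 others: 29 genes (0.362%) were higher and 88 (1.10%) lower, with the interval apart from 1 for 8 and 54. VLDLR (26.3 against 9.50 CPM), SFRP5 (2.65 times higher) and CYP26A1 (37.1 against 16.6) were higher. FGF10 was at 26.7 against 17.0 CPM and TBX3 at 152 against 111, both under 2-fold. PITX1 (14.5 against 79.3 CPM, 5.48-fold lower), HOXC9 (5.56 against 31.0) and HOXB9 (38.2 against 80.9) were lower, and 4 of 27 HOX genes were lower and 0 higher. ALDH1A2 was at 69.3 against 65.0 CPM.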

How the data were processed

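The authors deposited UMI counts of each gene in each barcode that they had called a cell, with no normalization. Cell Ranger 2.1.0 made them, per the submitters' processing notes. The sources used here name neither a genome build nor an annotation. Both v2 and v3 reagents appear, per the labels' protocols. Of 26223 gene rows, 9499 had LOC identifiers, of which 673 were given a symbol from a RefSeq table; 1 blank row held 0 UMIs. UMIs were summed over the cells of a group and scaled to CPM. Ratios have exact conditional binomial, levels exact Poisson and shares of cells exact binomial (Clopper-Pearson) 95% intervals. Shares were also taken after thinning each cell to 3500 UMIs; every E24 cell had at least 3736, so none was left out. The ratio routine was tested on simulated data. Cells were scaled to 10000 UMIs, log-transformed and clustered on 2000 variable genes, 30 components and 15 neighbours (Leiden, resolution 1, seed 0; scanpy 1.11.5, igraph 0.11.9, scipy 1.17.1, Python 3.11.15). No cell was removed. Scrublet called 0 doublets at its automatic threshold, so its calls gave no filter, and whether its scores mark doublets was not tested. An alternative removed the 906 highest scores.

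Members, lists and comparisons were chosen with earlier results of these data known. Per comparison, up to 15 higher and 10 lower genes could be named by the interval bound nearest 1, with at least 50 UMIs in the higher group, besides members of the lists. Other genes set side by side, and both cluster comparisons with their 1000-UMI limit, were chosen after the data were seen. List medians used a pseudocount of 0.5 UMIs.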

Additional observations from a re-analysis of the deposited data

How the results depend on the processing

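Over the alternatives, 609 values of single genes and list medians stayed within their interval, 192 moved outside it, and 9 values past 2-fold reversed. Without the double-positive cells of cluster 12 the log2 ratios were -2.01 for PNOC, -1.08 for MYL7, -0.05 for GATA4 and -0.02 for CNN1. Without the erythroid-like cluster that of HBZ was 0.04. Within cluster 12, the log2 ratios to PRRX1-only cells were 0.52 for ISL1 and -0.18 for DCN. These alternatives were chosen after seeing the data. With 2 or more UMIs of each rule gene the log2 ratios were -1.42 for GATA4 and -0.43 for CNN1. KRT8, at 0.27 under 2-fold, was at -0.20 under that rule and at -0.37 without the cluster 12 cells.

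Counts depended on the threshold of the rule and on the UMI filter. With 2 or more UMIs of each gene there were 77 cells, with 1378 lower genes against the other cells and 175 higher against PRRX1-only cells. With the rule applied after thinning to 3500 UMIs there were 80 cells, 399 higher and 1361 lower genes. A filter of 50 UMIs gave 326 higher and 1692 lower genes, and one of 1000 UMIs 88 and 256. Under the 1000-UMI filter, 12, 48, 96 and 341 genes were higher than in PRRX1-only, TBX5-only, FOXF1 GATA6 and PAX1 FOXC2 cells. The share of double-positive cells in the first 2 clusters, 87.6%, was 55.9% at resolution 2 and 94.0% with the rule genes kept. Thinned to 2000 UMIs, 1 later-stage cell remained of 5, and 24 E24 cells of 315. Leaving out the 906 cells with the highest Scrublet scores, 30 of them double-positive, changed neither count against the other cells by more than 1.5 times. It moved 13 of 65 single genes by more, TTR, ISL1, FOXC2 and HOXC9 among them, and turned 0. No paired analysis was possible because each stage has 1 library.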
